A study of Triticum aestivum with 10 samples.

Results

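Bread wheat grains of the harvest-2004 group (H2004, named for its harvest year) were compared with grains of the harvest-2006 group (H2006) at the same 4 stages of grain development. The 8 arrays of this comparison belong to a series of 10. Probe sets entered when their log2 value was at least 4 on 4 or more of the 8 arrays, which left 22002 of 61179 probe sets that are not Affymetrix controls. The members described are the 6236 probe sets whose H2004 minus H2006 difference had the same sign at all 4 stages, 1918 of them higher and 4318 lower in H2004. The rule fixes that sign, so the shared sign itself is a description and carries no test.

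The series followed gene expression in the developing grain (endosperm and embryo together) of hexaploid wheat, Triticum aestivum cv. Récital, grown untreated in a greenhouse. Stages are counted in degree days after pollination (DD), the sum of daily temperatures, with 200 and 250 DD in the cell division phase and 300 and 500 DD in the filling phase. Total RNA was hybridized to the Affymetrix wheat array, with 1 array for each harvest and stage. The labels give no year, and arrays were assigned to a harvest because their labelled degree days lie nearest to that harvest's sampling times in the methods. The H2004 group held 4 arrays labelled 200, 250, 300 and 500 DD, and the H2006 group held 4 arrays labelled 185, 230, 290 and 490 DD. The 2 harvests therefore differed in sampling time as well as in year: by the labels the H2004 grains were 15, 20, 10 and 10 DD later at the 4 stages, and by the study's methods 18, 16, 3 and 12 DD later. Year, sampling time and any difference in RNA handling between the harvests cannot be told apart by group alone, and nothing in the labels says whether an array held RNA of 1 plant or of several. P-values given here measure the spread of 4 paired differences.

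In the dividing stages of the wheat grain the endosperm multiplies its cells and the green pericarp photosynthesizes. In filling, the starchy endosperm loads gluten proteins, protease and amylase inhibitors and starch, while the aleurone and the embryo build up proteins that protect the seed during drying. Most transcripts of the grain climb or decline through this course, so a grain taken later along it has more of the filling transcripts and less of the early ones. For that reason each harvest difference was set beside the slope of the same probe set over the 4 stages.

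The arrays of a stage were close to each other, with correlations between the H2004 and the H2006 array of 0.931 to 0.956 over the 22002 probe sets. The median difference over all probe sets was -0.03, -0.15, -0.11 and -0.02 on the log2 scale at 200, 250, 300 and 500 DD, and centring each array on its median moved it to -0.05, 0.00, -0.03 and -0.01. Starchy endosperm markers (gliadins, glutenins and 2 starch genes, 12 probe sets) averaged 12.84 to 13.11 in H2004 and 12.05 to 13.08 in H2006. Green pericarp markers, which endosperm and embryo should lack, were present throughout at 10.37, 9.61, 8.94 and 7.0 in H2004 and 10.21, 9.88, 9.24 and 6.34 in H2006. The 4 embryo markers averaged under 4 at 200 and 250 DD in both harvests and reached 10.71 in H2004 and 11.15 in H2006 at 500 DD. In RNA of whole tissue, fewer cells of a type and less RNA per cell cannot be told apart.

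Probe sets lower in H2004 at every stage were the most frequent of all sign patterns, at 19.6% of those tested, and probe sets higher at every stage made up 8.72%. The split depended on the scale. With each array centred on its median, 2614 were higher and 3264 lower, so that the higher ones were 44.5% of the same-sign probe sets, against 30.8% with the deposited values. Most same-sign differences were small. The smallest of the 4 differences had a median of 0.14 in size, and it was under 0.1 in 39.4% of the members. Just outside the rule, 9912 probe sets had 3 differences of one sign, and in 2522 of these the odd difference was under 0.1 in size.

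The balance of higher and lower members changed with the size asked for. With a difference of at least 0.5 at every stage, 460 probe sets were higher and 329 lower in H2004, but among those at 4 or more on all 8 arrays 140 were higher and 237 lower. With at least 1 at every stage, a change of at least 2-fold, 286 were higher and 23 lower, and with at least 2, 110 were higher and 0 lower. Of the 286, 110 had values under 4 on all 4 arrays of H2006 and at least 4 on all 4 arrays of H2004. Such probe sets passed the filter through the H2004 arrays alone and had to differ, so their number says nothing on how common differences are. Others of the 286, at 4 or more on all 4 arrays of H2004 and on fewer than 4 of H2006, also met the filter without the H2006 arrays. Of the 286, 54 were at 4 or more on all 8 arrays, as were 14 of the 23.

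The members with the largest differences had no gene paired with them in the array's annotation. TaAffx.25602.1.S1_s_at was at 12.66, 12.66, 13.15 and 11.60 in H2004, against 7.42, 2.6, 7.73 and 2.85 in H2006. All 4 arrays of H2004 lay above all 4 of H2006, and the mean difference of 7.37 ± 2.41 (SD, n = 4 paired differences) was the highest of all probe sets tested (limma adjusted p = 0.0394). TaAffx.128541.51.S1_at was at 8.62, 9.54, 9.52 and 7.86 in H2004, against 4.44, 2.61, 4.62 and 2.48 in H2006 (difference 5.35, SE 0.42, limma adjusted p = 0.0365). TaAffx.56527.1.S1_x_at had 7.83, 8.77, 9.44 and 7.75 in H2004 and 4.12, 2.42, 3.64 and 2.42 in H2006. In all the probe sets named in this paragraph the H2006 values were higher at 200 and 300 DD than at 250 and 500 DD. TaAffx.59390.1.S1_at and TaAffx.70061.29.S1_at were under 4 on every array of H2006, at 2.95 to 3.71 and 2.26 to 3.53, and lay at 6.83 to 8.95 and 6.07 to 9.11 in H2004. All the probe sets named here were at 4 or more on all 4 arrays of H2004 and so met the filter without the H2006 arrays.

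**Figure D1:**
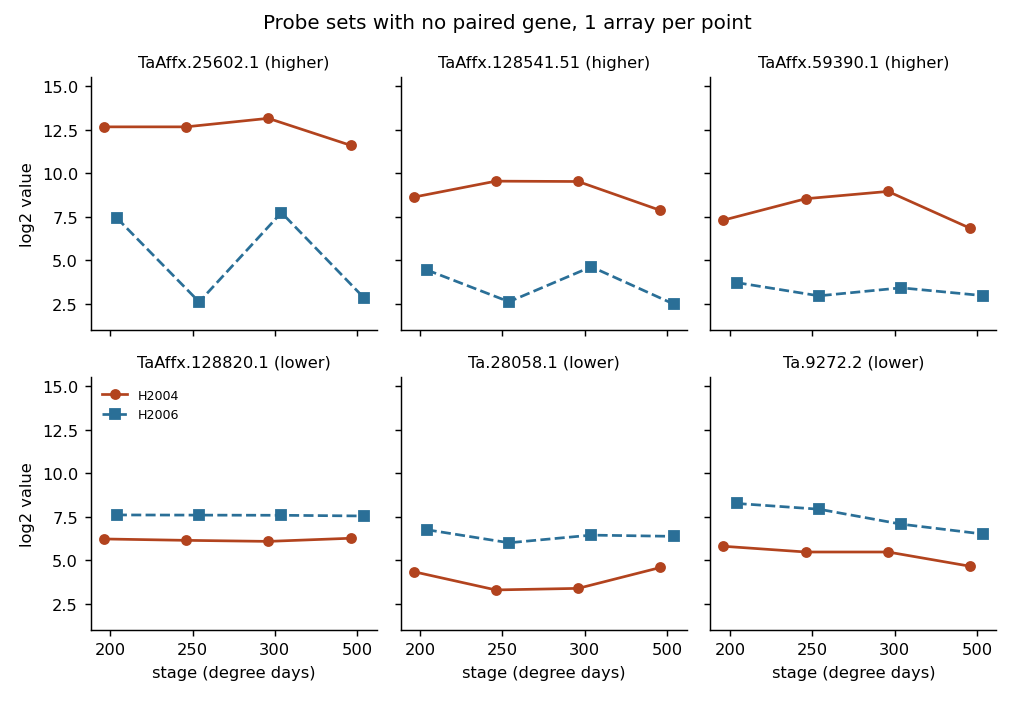
Log2 value (vertical axis) of 6 probe sets at the 4 stages (evenly spaced on the horizontal axis, in degree days), 1 array per point, in H2004 grains (circles, solid) and H2006 grains (squares, dashed). The upper 3 lie at 6.83 to 13.15 in H2004 and below 7.8 in H2006, and the lower 3 are below the H2006 value at each stage.

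TaAffx names were frequent among these probe sets. Names starting with TaAffx made up 24.0% of the probe sets tested and 34.0% of those higher in H2004 at every stage, but 76.7%, 89.5% and 94.5% of those higher by at least 0.5, 1 and 2. The filter was passed through the H2004 arrays alone by at least 127, 110 and 38 of those higher by at least 0.5, 1 and 2, which were under 4 on every H2006 array. Those at 4 or more on all 8 arrays numbered 140, 54 and 7. The shares rest in part on probe sets that met the filter without the H2006 arrays, and no share is given for members at 4 or more on all 8 arrays. Among the probe sets lower at every stage the shares were 27.7% for all and 38.9% and 34.8% for at least 0.5 and 1. Probe sets whose names share a number come from 1 sequence cluster of the array's design and are not independent. Over all tested probe sets 8.72% were higher at every stage. Of the TaAffx.128541 cluster, 10 of 10 tested were higher at every stage, with a median mean difference of 3.61. Of TaAffx.129824 it was 7 of 7 (median 2.32), of TaAffx.128617 9 of 10 (median 2.12), of TaAffx.70061 7 of 9 (median 2.62) and of TaAffx.128896 10 of 11 (median 1.57). The largest such cluster, TaAffx.128418, had only 11 of 40 higher and 4 lower, with a median of 0.13. In this order the array holds 44, 9, 13, 22, 17 and 113 probe sets of these clusters, and the others were not tested. The filter can be met through the H2004 arrays alone, so probe sets high there entered more readily. These counts are therefore partly fixed by the filter. Altogether 83 of the 286 probe sets shared a cluster with another of the 286.

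Control probe sets differed between the same arrays. The 12 probe sets of the poly(A) spike-ins, bacterial transcripts added to the RNA before labelling, averaged 10.7, 9.96, 10.7 and 9.8 in H2004 and 4.74, 8.67, 5.51 and 10.1 in H2006. They were thus low on the H2006 arrays of 200 and 300 DD and alike in both harvests at 500 DD. On these H2006 arrays of 200 and 300 DD the higher probe sets named above, such as TaAffx.25602.1.S1_s_at, had higher values than at 250 and 500 DD. The 18S ribosomal RNA control was at 8.65, 7.04, 7.42 and 6.74 in H2004 and at 4.24, 6.34, 4.77 and 6.94 in H2006. The 286 members had medians of 6.85, 8.06, 8.24 and 6.09 in H2004 and 4.46, 3.02, 3.54 and 3.09 in H2006. Their median differences were 2.05, 4.41, 4.48 and 2.43 at 200, 250, 300 and 500 DD, and at least 110 of them had passed the filter through the H2004 arrays alone. The gap between the 3′ and the 5′ end of sucrose synthase, which widens when the labelled RNA is shorter, was 4.53, 4.76, 5.10 and 5.34 in H2004 and 4.47, 3.14, 4.30 and 4.54 in H2006. For glucose-6-phosphate dehydrogenase it was 2.56, 2.62, 3.26 and 2.88 in H2004 and 2.34, 1.92, 2.05 and 1.93 in H2006, so both gaps were wider in H2004 at every stage. The part of these measures in the harvest differences was not tested.

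**Figure D2:**
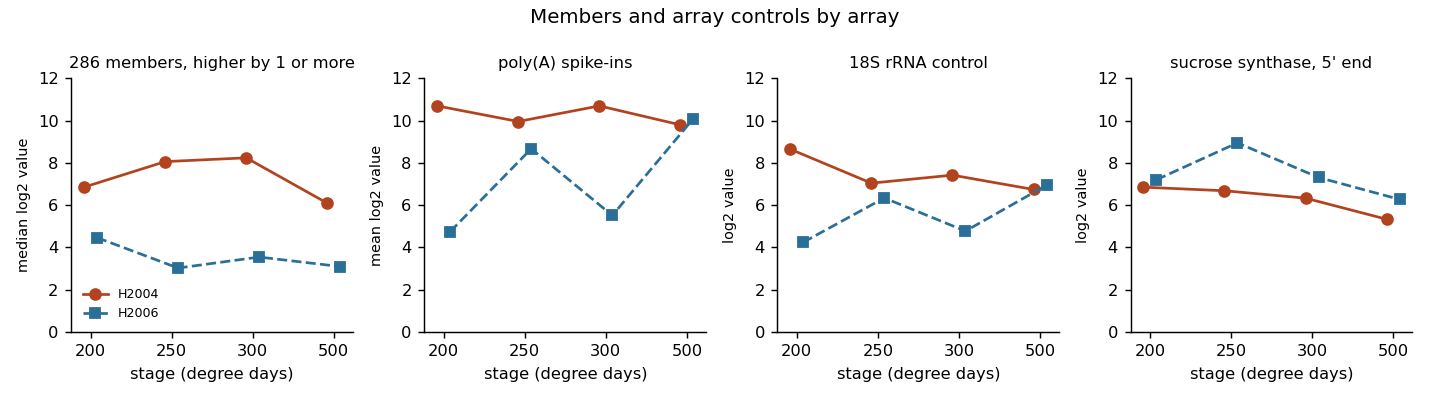
Values by array at the 4 stages (horizontal axis, degree days, evenly spaced) in H2004 (circles) and H2006 (squares): median log2 value of the 286 members higher by at least 1, mean log2 value of the 12 poly(A) spike-in probe sets, and log2 value of the 18S rRNA control and of the 5′ sucrose synthase control. The members lie apart at every stage, the spike-ins and the 18S control at 200 to 300 DD and not at 500 DD.

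Probe sets lower in H2004 had smaller and steadier differences. TaAffx.128820.1.S1_at, named because it was the 1 probe set that passed the methods' t-test of 2 groups with Bonferroni adjustment, was at 6.22, 6.14, 6.08 and 6.26 in H2004, against 7.60, 7.59, 7.58 and 7.54 in H2006. It hardly moved over the stages, whose means spanned 0.08, and its 4 differences had a mean of -1.40 ± 0.10 (SD, n = 4), also past the limma test (adjusted p = 0.0365). Ta.28058.1.S1_at was at 4.34, 3.29, 3.38 and 4.58 in H2004 and 6.75, 6.0, 6.44 and 6.37 in H2006, with no overlap of the groups (difference -2.49, SE 0.23, limma adjusted p = 0.0365). Ta.28289.1.S1_a_at was at 3.07 to 4.69 in H2004 and 5.40 to 6.34 in H2006. Ta.9272.2.S1_a_at had 5.80, 5.47, 5.47 and 4.65 in H2004 and 8.26, 7.93, 7.07 and 6.50 in H2006, declining in both harvests at a distance of 1.60 or more. Ta.3300.1.S1_at was at 3.42, 2.88, 2.92 and 4.88 in H2004 and 5.47, 4.82, 6.04 and 7.58 in H2006, so that its groups overlapped only in the H2004 value at 500 DD. Ta.9981.1.S1_at declined over the stages, at 7.28, 5.82, 3.52 and 2.76 in H2004 and 10.24, 7.87, 5.58 and 4.19 in H2006. None of these 6 probe sets is paired with a gene.

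Tested with limma with stage as a block, 226 probe sets (1.03%) passed an adjusted p of 0.05, 157 higher (0.714%) and 69 lower (0.314%) in H2004. All 226 had the same sign at every stage. Of the 157, 139 had TaAffx names, 66 were under 4 on all H2006 arrays, and 24 were at 4 or more on all 8 arrays, as were 47 of the 69. The filter could be met through the H2004 arrays alone, so it fixed part of the balance of 157 to 69 and of the count of TaAffx names. Mean differences of the 157 ran from 0.98 to 7.37 with a median of 3.49, while those of the 69 ran from -2.50 to -0.87 with a median of -1.22. Not 1 of the 226 was among the 838 tested probe sets paired with a gene. The lowest adjusted p was 0.0365, and the count did not hold under other settings: it was 0 without the stage pair of 250, 300 or 500 DD and 215 without that of 200 DD (132 of them shared), 0 among the 18419 probe sets at 4 or more on all 8 arrays, and 0 without those under 4 on all arrays of a harvest. At an unadjusted p under 0.05 there were 4048 probe sets, and an exact test of signs on 4 pairs cannot go below a two-sided p of 0.125.

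The question of sampling time was first put to all probe sets together. At each stage the difference of every probe set was regressed on the local slope of its own course, which gives the distance in degree days by which the H2004 array lay ahead on the common course. This lead was 32.3 DD at 200 DD, 30.7 DD at 250 DD, 6.24 DD at 300 DD and -7.71 DD at 500 DD, where a negative lead places the H2004 array behind. The labels give gaps of 15, 20, 10 and 10 DD. By this measure the lead was larger than the labelled gap at 200 and 250 DD and negative at 500 DD. At 200 and 500 DD the local slope used the stage mean of the same arrays as the difference. A fault of a single array there would enter both, so the lead is a description and not a measured age. The sign at 300 and at 500 DD was not stable, being -0.75 DD at 300 DD with no filter and 3.37 DD at 500 DD with the probe sets at 4 or more on all 8 arrays. Across probe sets, the difference correlated with the local slope at 0.455, 0.283, 0.031 and -0.058 from 200 to 500 DD, as a description over 22002 probe sets that share the same arrays. The lead depended on which probe sets were taken. Rising probe sets (10114) gave 33.2, 23.8, -4.07 and -1.83 DD from 200 to 500 DD, and falling ones (11888) gave 31.5, 38.3, 13.5 and -11.4 DD. Rising ones whose stage means spanned at least 2 (926) gave 41.3, 25.1, 5.01 and -5.9 DD. Falling ones with such a span (1479) gave 32.3, 28.7, 23.2 and -3.3 DD. The same-sign members themselves gave 33.1, 50.1, -18.0 and -36.5 DD, as a description, since the rule had used their differences.

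**Figure D3:**
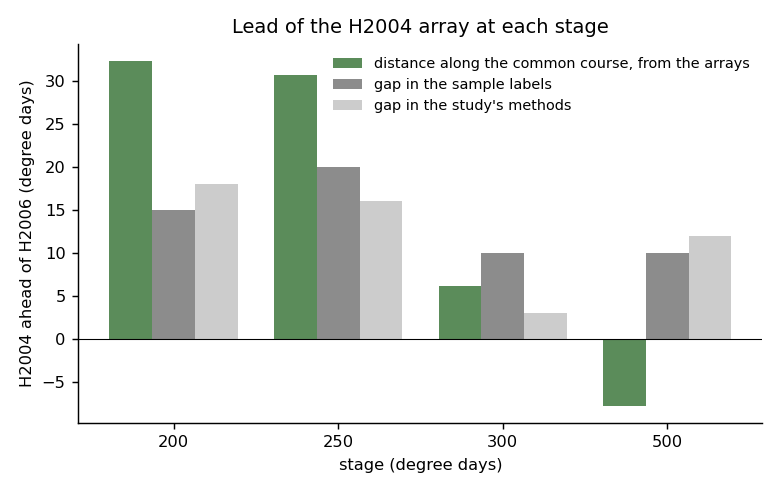
Distance in degree days (vertical axis) by which the H2004 grains lay ahead of the H2006 grains at the 4 stages (horizontal axis), as the arrays place them and as the labels and the study's methods give the sampling gap. The bars of the arrays stand at 32.3, 30.7, 6.24 and -7.71 DD and those of the labels at 15, 20, 10 and 10 DD.

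Each member was then set beside its own slope, which rested on the last stage. Stage means that spanned under 0.5 were called flat, and 1786 members (28.6%) were flat, against 29.9% of all tested. Of the members, 2373 (38.1%) differed in the direction that later sampling gives on their slope and 2077 (33.3%) against it. Over all tested probe sets these shares were 37.4% and 32.7%. With slopes taken without the 500 DD pair the members' shares were 54.1% along and 17.2% against, beside 45.8% and 24.3% of all tested. The directions were not alike. Of the 1918 higher in H2004, 951 were on a falling slope and 607 on a rising one, and of the 4318 lower in H2004, 1766 were on a falling slope and 1126 on a rising one. Of the 460 that were higher by at least 0.5, 378 were on a falling slope (82.2%), but their slope turned on 1 stage: without the 500 DD pair, 142 were falling and 307 rising. Their H2004 medians were 6.85, 7.8, 8.13 and 6.16 at the 4 stages. Of the 329 that were lower by at least 0.5, 201 (61.1%) lay along the slope and 78 (23.7%) against it, and 75.1% and 9.73% without the 500 DD pair. Of the 69 lower past the limma test, 52.2% lay along the slope and 26.1% against it, and 65.2% and 13.0% without the 500 DD pair. For the 157 higher past that test the shares were 7.64% along and 90.4% against. Without the 500 DD pair they turned to 80.9% along and 17.2% against.

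**Figure D4:**
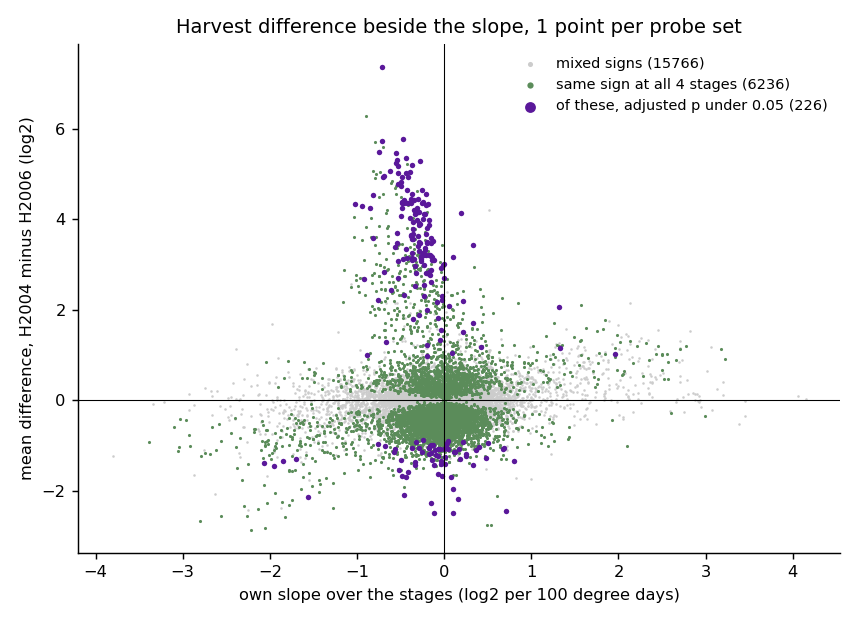
Mean H2004 minus H2006 difference (vertical axis, log2) of each of the 22002 probe sets against its slope over the stages (horizontal axis, log2 per 100 degree days), with the 6236 same-sign members and the 226 past the limma test marked. Members lie on both sides of 0 on both axes, and the largest differences, up to 7.37, lie above slopes a little below 0.

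The labelled gap was also turned into an expected shift for each probe set. The shift expected from local slope times labelled gap had a median of 0.04 in size over the 6236 members, while the mean difference had a median of 0.46. The rule selects for differences that repeat, so the second value is a description. When this shift was taken off each difference, 1929 probe sets were higher and 4042 lower at all 4 stages. Of the members, 1658 of the 1918 higher (86.4%) and 3684 of the 4318 lower (85.3%) kept their sign throughout. The limma test on the differences less the shift called 191 higher (0.868%) and 66 lower (0.3%), of which 152 and 55 were also called before the shift was taken off. A straight line between stages takes off a linear shift only, and the lead found from all arrays together was larger than the labelled gap at 200 and 250 DD. With that lead in place of the gap, 1840 were higher and 3886 lower at all stages.

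Genes with a name other than a locus number were few, 88 genes with 143 tested probe sets. Of these probe sets 21 were higher and 22 lower in H2004 at all stages, for 19 and 16 genes. Over all tested probe sets the shares were 8.72% higher and 19.6% lower. Of the 143 named probe sets 0 passed the limma test, so their values are given without the words of a change. After quantile normalization and after median centring 2 of them passed it, Serpin-Z1C and 1 probe set of rbcl, and that of rbcl also passed without the 200 DD pair and with the labelled shift taken off (limma adjusted p = 0.047). Several lay along the course of the grain, as a later sample would. BMY1 (LOC543318), a beta-amylase that releases maltose from starch, declined over the stages, at 10.53, 8.91, 6.47 and 3.93 in H2004 and 11.77, 10.71, 8.52 and 4.44 in H2006. The mean difference was -1.40 (SE 0.27, limma adjusted p = 0.0721), the shift from the labelled gap was -0.38, and -1.02 remained after it was taken off. Expressed as a distance on its own course, BMY1 was 44.0, 50.4, 93.3 and 30.5 DD ahead in H2004. Pgk-1 (LOC543496), the phosphoglycerate kinase of glycolysis, also declined and was at 10.35, 9.48, 8.31 and 7.63 in H2004 and 10.97, 9.93, 9.07 and 7.85 in H2006, or 31.1, 23.6, 98.7 and 45.0 DD ahead. Both genes had the smallest difference at 500 DD.

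The serpins, protease inhibitors stored in the endosperm, rose over the stages, and Serpin-Z1C and Serpin-Z2A were members along that course. Serpin-Z2B (LOC543382) was no member, with differences of 1.74, 1.19, 0.36 and -0.09 from 200 to 500 DD. Serpin-Z1C (LOC542985) was at 7.49, 7.41, 8.34 and 11.02 in H2004 and 6.21, 6.52, 7.67 and 10.04 in H2006, a difference of 0.96 (SE 0.16, limma adjusted p = 0.0561) of which the labelled gap gives 0.13. Serpin-Z2A (LOC543376) was at 9.01, 9.42, 10.96 and 12.38 in H2004 and 7.84, 8.08, 10.42 and 11.51 in H2006 (difference 0.98, SE 0.18, limma adjusted p = 0.0656). As a distance on their own courses the H2004 arrays were 527, 79.3, 48.3 and 77.4 DD ahead for Serpin-Z1C and 170, 60.6, 42.8 and 139 DD ahead for Serpin-Z2A, distances longer than the labelled gap at every stage. The local slopes at 200 DD were only 0.02 and 0.07 per 10 DD. A difference divided by so small a slope gives a long distance, which is not read as time. WZS2 (LOC100037548), another serpin gene, disagreed between its probe sets: the one ending in _s_at was 2.10, 0.45, 0.44 and 0.73 higher in H2004, the other 1.89, 0.63, 0.19 and -0.16. The late embryogenesis gene LEA1 (LOC543476) was at 9.54, 10.40, 11.29 and 12.36 in H2004 and 8.52, 9.57, 11.02 and 12 in H2006, or 51.0, 40.1, 30.7 and 70.7 DD ahead. Rab15 (LOC543293), of the same list, climbed more steeply and went the other way on Ta.2704.1.S1_x_at. Its differences there were -0.0, -0.24, -0.68 and -0.43, or -0.563, -6.43, -20.5 and -17.8 DD on its own course. The other tested probe sets of Rab15 had mixed signs. The small heat shock protein gene hsp16.9A (LOC543277), a chaperone, was at 6.16, 6.04, 8.43 and 11.78 in H2004 and 4.43, 5.19, 7.84 and 8.50 in H2006, with its largest difference at 500 DD and distances of 257, 30.6, 32.9 and 327 DD. Its local slopes at 200 and 500 DD were low too, at 0.07 and 0.1 per 10 DD. WZF1 (LOC543182), which encodes a zinc finger protein, was 1.04 to 1.42 higher in H2004 at 250, 300 and 500 DD and 5.24 higher at 200 DD, where the H2006 array stood at 4.13.

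XIP-I (LOC542997), an inhibitor of microbial xylanases, climbed steeply. Its first probe set was at 8.60, 11.69, 13.41 and 14.10 in H2004 and 5.48, 10.18, 13.04 and 14.59 in H2006, and was no member because the sign turned at 500 DD. On its own steep course the H2004 arrays were 38.0, 25.1 and 27.2 DD ahead at 200, 250 and 300 DD. The second probe set gave 47.6, 23.9 and 21.1 DD. At 500 DD the distances were -88.3 and -70.5 DD, on a course of 0.06 per 10 DD against 0.82 and 0.9 at 200 DD. The gene PER1 (LOC543108), whose peroxiredoxin removes peroxides in aleurone and embryo, was at 11.40, 12.35, 12.98 and 13.51 in H2004 and 8.73, 12.25, 13.04 and 14.12 in H2006, so its difference of 2.67 stood at 200 DD alone.

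Other named genes differed against their course, in the direction that an earlier sample would give. Trx-M (LOC542973), a chloroplast thioredoxin, declined, yet was at 9.86, 9.46, 8.85 and 6.32 in H2004 and 9.11, 8.81, 8.69 and 4.55 in H2006 (difference 0.83, SE 0.27, limma adjusted p = 0.187). The Rieske protein gene petC of photosynthetic electron transport declined too and was 0.17, 0.02, 0.18 and 0.69 higher in H2004. ALMT1 (LOC543388), a malate transporter known from roots in acid soil, climbed over the stages and was at 2.43, 3.59, 3.98 and 5.78 in H2004 and 4.26, 4.11, 4.56 and 6.74 in H2006 (difference -0.97, SE 0.25, limma adjusted p = 0.125). The beta-tubulin gene Tubb5 (LOC543261) was at 9.49, 9.56, 9.41 and 9.93 in H2004 and 9.77, 10.35, 10.02 and 10.59 in H2006, and all 4 of its probe sets were lower in H2004 at every stage. Only this probe set had a course to go against, with stage means that spanned 0.63. Those of its other probe sets spanned 0.42 to 0.48 and were flat. The basal factors differed by little on level courses. TBP1, the TATA-binding protein, was 0.16 to 0.37 lower, and the translation factors eIF-2-beta (LOC543269) and eIF-4E-1 (LOC543485) were 0.36 to 0.50 and 0.01 to 0.38 lower in H2004. The proton pump gene ha1 (LOC543149) had 2 probe sets lower and 1 higher at every stage, so it has no one direction.

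**Figure D5:**
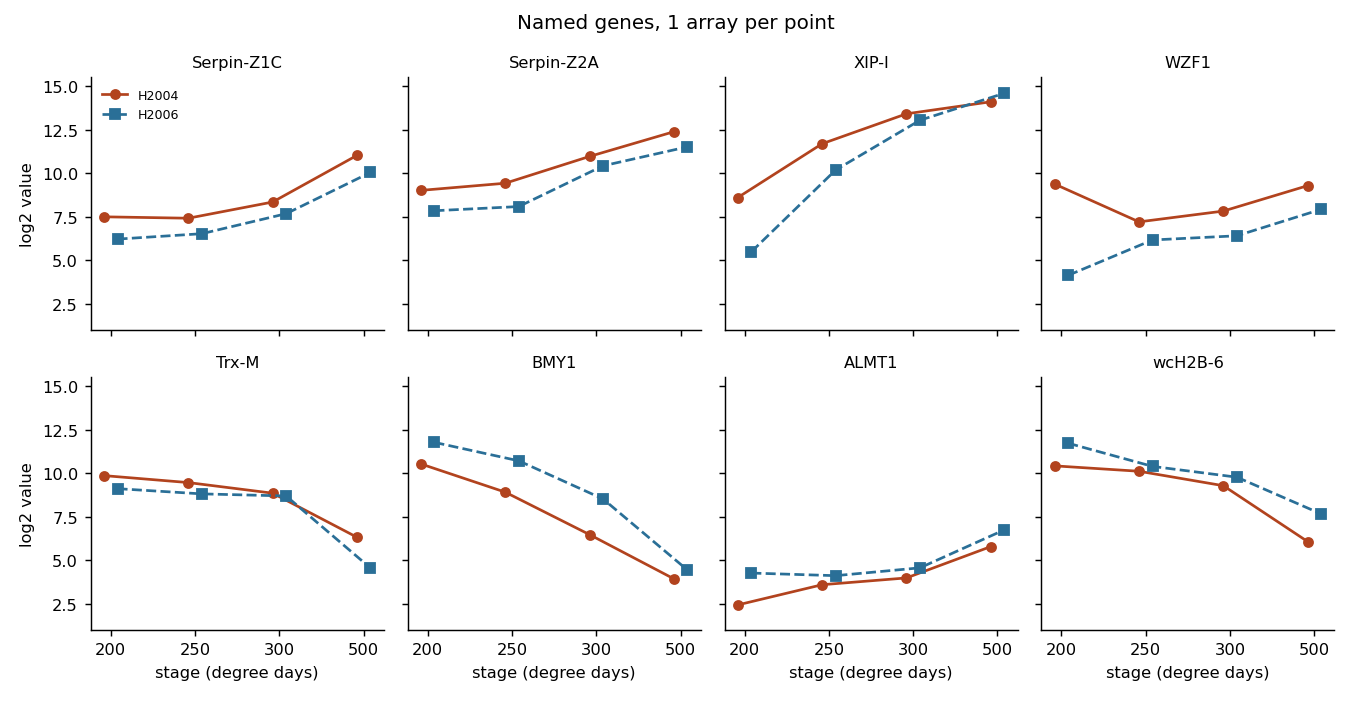
Log2 value (vertical axis) of 8 named genes at the 4 stages (horizontal axis, degree days, evenly spaced), 1 array per point, in H2004 (circles, solid) and H2006 (squares, dashed). Serpin-Z1C, Serpin-Z2A and BMY1 differ along their course, Trx-M and ALMT1 against it, and XIP-I differs by 3.11 at 200 DD and by -0.49 at 500 DD.

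The plastid gene rbcl, for the large subunit of rubisco, gave the largest difference of any named gene, on 1 probe set. TaAffx.128896.17.S1_s_at was at 7.58, 8.47, 9.26 and 6.36 in H2004 and 5.99, 4.13, 3.76 and 3.24 in H2006 (difference 3.64, SE 0.59, limma adjusted p = 0.0551). The other 3 tested probe sets of rbcl had mean differences of 0.10, -0.05 and -0.05, at mean levels of up to 14.90 in H2004 and 14.80 in H2006. The gene as a whole therefore showed no one direction, and the probe set went with its TaAffx.128896 cluster.

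Gene lists were described by counts and medians. Over all tested probe sets the median mean difference was -0.08, with 8.72% higher and 19.6% lower at every stage. Of 16 probe sets of gluten storage proteins 6 were higher and 0 lower (median 0.07), and of 10 probe sets of amylase inhibitors and serpins 3 were higher and 0 lower (median 0.36). Of 8 for thionins and lipid transfer proteins 4 were higher and 0 lower (median 0.08). In these 3 lists the median difference was greatest at 200 DD, at 0.48, 0.76 and 0.32, and lay between -0.07 and 0.29 at the later stages. The gliadin probe set Ta.24114.10.S1_x_at of gli-2 (LOC543212) was at 14.50, 14.47, 14.69 and 14.36 in H2004 and 12.84, 14.22, 14.32 and 13.48 in H2006. The antifungal TTHV, listed with the thionins, was 2.25 and 0.75 higher at 200 and 250 DD and 0.07 and 0.06 higher at 300 and 500 DD. A probe set of the low molecular weight glutenin gene LMW-GS (LOC543213) was 1.15 and 0.79 higher at 200 and 500 DD and 0.00 and 0.04 higher at 250 and 300 DD.

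Histones had members in the lower direction only. Of 18 probe sets for core histones, which package newly made DNA, 5 were lower and 0 higher in H2004 at every stage, or 27.8%, against 19.6% of all tested. A mean below 0 was found in 17 of them, against 60.4% of all tested. The median difference was -1.17 at 200 DD, -0.01 at 250 DD, -0.08 at 300 DD and -1.05 at 500 DD. Histones declined over the stages, so they were lower in the direction of the course. wcH2B-6 (LOC543183) was at 10.42, 10.11, 9.28 and 6.07 in H2004 and 11.72, 10.39, 9.77 and 7.66 in H2006 (difference -0.92, SE 0.25, limma adjusted p = 0.144). For wcH2B-8 (LOC543184) only Ta.7378.1.S1_at was a member, at 7.32, 6.85, 7.05 and 2.65 in H2004 and 8.84, 7.38, 7.19 and 5.01 in H2006. The other tested probe sets of wcH2B-8 had mixed signs, being higher in H2004 at 250 or 300 DD. Probe sets of these genes share sequence with other histone copies and are not separate measurements.

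In other lists the counts were small, beside the 8.72% higher and 19.6% lower of all tested. For cytoskeleton and cell wall, 5 of 13 were lower and 0 higher (median -0.13), 4 of the 5 from Tubb5. The cell wall enzyme XTH was no member, with 0.25 higher at 200 DD and 0.87, 0.73 and 1.92 lower afterwards in H2004. For ion and metal transport, 3 of 9 were lower and 1 higher (median -0.12). For photosynthesis, 3 of 12 were higher and 0 lower (median 0.13), being Trx-M, petC and 1 probe set of rbcl. Starch and fructan metabolism had BMY1 lower among 6 and no other member. The fructan exohydrolase 6-FEH (LOC780575) was 0.65, 0.82 and 0.67 higher in H2004 at 200, 250 and 300 DD and 0.07 lower at 500 DD on 1 probe set, and had mixed signs on the other. Translation had 2 of 7 lower, peroxide and xenobiotic defence 1 of 8 lower (GSTZ1, a glutathione transferase), and methyl transfer 1 of 4 higher. In each of the other lists with tested probe sets no more than 1 was a member in either direction.

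The difference itself was not shown to change between the phases. A limma contrast of the harvest difference in filling (300 and 500 DD) minus that in division (200 and 250 DD) called none of the 22002 (0), while 1910 had an unadjusted p below 0.05. Differences of probe sets correlated at 0.707 between 250 and 300 DD, at 0.551 between 200 and 250 DD and at 0.529 between 300 and 500 DD, and at 0.257 between 200 and 500 DD, the most distant stages. The pair of 100 DD arrays, which has no place in the comparison, was not read against the members. Its H2004 array correlated at 0.986 with the H2004 array of 500 DD and at 0.596 with the H2006 array of 100 DD, so it went against its label.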

How the data were processed

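The authors deposited log2 values after GCRMA (version: not given in the sources used here), 1 column for each of 10 arrays. The array scans and the depth of signal over background were not used here. Title letters give the stage and were used as the block. Title number 2 was taken as H2004 and number 1 as H2006, because their labelled degree days lie nearest to those of the methods. Per-sample columns left out numbered 0. Tests used limma 3.58.1 in R 4.3.3 with Benjamini-Hochberg adjustment over all 22002 probe sets, two-sided, and were tested on simulated data. Gene names came from the array's annotation, with 1273 probe sets, of which RefSeq (IWGSC CS RefSeq v2.1) holds the gene for 1272. A suffix _a, _s or _x in a name marks probes shared by related transcripts or homoeologs. Named were the members with the largest smallest difference (10 higher and 10 lower with a named gene, 5 and 5 of all, 5 and 5 against the slope), BMY1, XIP-I and up to 2 per gene list. Members and lists were chosen with earlier results of these data known. No sequences were used here.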

Additional observations from a re-analysis of the deposited data

Results flagged for a closer look

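Groups of 4 values were checked for 1 value far from the others, and chance gives about 1 such in 20 groups. In all, 77 groups were checked and 7 were flagged. Among the paired differences of the 49 named probe sets, 4 had one. For WZF1 (Ta.103.1.S1_at) it was the 5.24 at 200 DD (the gap to the next value was 0.909 of the whole range), and its mean difference without that pair was 1.27. For ha1 (Ta.28364.1.S1_x_at) it was the -0.66 at 500 DD (0.872), for eIF-4E-1 (Ta.14707.1.S1_at) the -0.01 at 500 DD (0.851), and for SAHH (Ta.1258.2.S1_x_at), a hydrolase of the methyl cycle, the -0.96 at 500 DD (0.945). Among measures of the H2004 arrays, the median of the probe sets was apart at 200 DD, at 6.80 against 6.69 to 6.70 (0.891). The 3′ and the middle control of sucrose synthase were apart at 500 DD, at 10.67 against 11.39 to 11.44 (0.935) and at 9.40 against 10.10 to 10.15 (0.933).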

How the results depend on the processing

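The count of 226 probe sets past the limma test rested on the settings. With no replicate block, that is with the arrays not paired by stage, it was 81. It was 0 among probe sets at 4 or more on all 8 arrays (3249 at an unadjusted p under 0.05), 0 with no filter (6449) and 0 with all 10 arrays (2895), and it was 262 after quantile normalization and 286 after median centring. A trended, robust prior gave 383 and labelled degree days in place of stage 596. The methods' t-test gave 2 after Benjamini-Hochberg and 1 after Bonferroni adjustment. Leaving out a stage pair gave 0 (without 250, 300 or 500 DD, with 2723, 2787 and 4234 at an unadjusted p under 0.05) to 215 (without 200 DD). Of settings chosen after seeing the data, at least 4 on 2 arrays gave 0, a mean of at least 4 gave 78, leaving out probe sets under 4 on all arrays of a harvest gave 0, and names starting with Ta. alone gave 0. The cause of these shifts was not tested. Same-sign counts were 23208 lower with no filter, 460 higher and 329 lower with a smallest difference of 0.5, and, chosen after seeing the data, 1199 higher and 2652 lower with a mean of at least 6. The share of same-sign probe sets against their slope was 33.3%, and 17.2% to 37.2% with 1 stage pair left out, lowest without 500 DD. The lead at 250 DD was 24.1 DD with at least 4 on all 8 arrays, the lead at 300 DD was -0.75 DD with no filter, and the lead at 500 DD was 3.37 DD with at least 4 on all 8 arrays. Among 49 named probe sets, direction turned for FKBP70, a protein isomerase (0.02 after median centring, -0.20 to 0.20 with 1 pair left out), PER1 (-0.19 to 0.90) and PEAMT1, a methyltransferase (-0.63 to 0.03), and SAHH reached 0.00 (-0.33 to 0.00). The 12 named probe sets past the test, none a named gene, fell short of it without 250, 300 or 500 DD. Serpin-Z1C and rbcl passed it after quantile normalization and after median centring, and rbcl without 200 DD. The contrast between phases called 0 under each of its 4 alternatives. With 4 pairs the number of arrays limits the precision.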
